A study of Mus musculus with 6 samples.

Results

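The nuclear-encoded genes of oxidative phosphorylation were examined in TRAPseq libraries from the skeletal muscle of mice given vehicle or 17β-estradiol (E2). A gene was a member if its symbol started with Nduf, Uqcr or Atp5, or with Cox followed by a digit from 4 to 8, or was Sdha, Sdhb, Sdhc, Sdhd, Cyc1 or Cycs, and pseudogene symbols containing -ps were dropped. This gave 94 members among the 24062 genes of the count table. They comprised 38 subunit genes of complex I and 7 of its assembly factors, 4 genes of complex II, 9 of complex III, cytochrome c, 18 of complex IV and 17 of complex V. Genes were placed by symbol alone, so that Atp5sl and Atp5s, which RefSeq names Dmac2 and Dmac2l, are counted with complex V.

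The mitochondrial respiratory chain passes electrons from NADH through complex I, and from succinate through complex II, to ubiquinone, on to complex III, by way of cytochrome c to complex IV, and finally to oxygen. The proton gradient built by complexes I, III and IV drives ATP synthase, which is complex V. Skeletal muscle fibers depend heavily on this pathway, whereas endothelial cells are known to make much of their ATP by glycolysis, and transcription of the nuclear-encoded subunits is classically linked to the factors NRF1 and GABP.

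In these mice, designated GFP-L10aEC, a VECad-Cre transgene, driven by the endothelial VE-cadherin promoter, removes a stop sequence at the Rosa26 locus, so that endothelial cells make ribosomal protein L10a with a GFP tag. The label gives the background B6.129S4 and an allele of Gt(ROSA)26Sor that carries CAG-EGFP/Rpl10a and birA. All of the animals in both groups were described as ovariectomized females. The study's methods place ovariectomy at 6 weeks of age, and the labels describe mice of 4 weeks of age. The vehicle group, labelled placebo, and the E2 group received subcutaneous pellets for 4 weeks, and tagged ribosomes with their RNA were then retrieved from gastrocnemius and soleus muscle with an anti-GFP antibody. Each group had 3 libraries, each labelled with the numbers of 2 mice, and the sources used here do not say whether those mice were pooled. The study's methods count more biological replicates in a group than there are libraries. The p-values therefore measure the spread between libraries, which may in part be technical.

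The libraries were shallow and not all alike, and the study's methods describe far more reads per library than the deposited counts hold. Totals ranged from 84823 counts in vehicle replicate 3 to 451034 counts in vehicle replicate 2, so that 1 count corresponded to between 2.22 and 11.8 CPM, the unit of counts scaled to equal library totals, and the ribosomal RNA gene Rn45s took 28.5 to 42.9% of the counts. Counts of Y-linked genes, which female mice lack, numbered 40 in vehicle replicate 1 and 63 in vehicle replicate 2, whereas the remaining 4 libraries had 0. The X inactivation RNA Xist was at 3.46 and 2.22 CPM in those vehicle libraries, at 35.4 CPM in vehicle replicate 3 and at 44.8 to 85.6 CPM with E2. Vehicle replicates 1 and 2 thus go against their female label, and vehicle replicate 3, which does not, is the shallowest library. Fold changes of tested members that depend on it are given without vehicle replicate 3 and also against it alone, with vehicle replicates 1 and 2 left out. The latter rests on 1 shallow library, and without vehicle replicate 3 the vehicle group is only the libraries with Y-linked counts, and E2 and whatever sets those libraries apart cannot then be told apart in any value. The sum of 25 skeletal muscle fiber markers, led by Tnnc2, Myh4 and Ttn, was 80500 to 118000 CPM in the vehicle libraries and 76700 to 101000 CPM in the E2 libraries, which is 7.67 to 11.8% of the counts. The sum of 20 endothelial markers, led by Cdh5, Kdr and Ptprb, was 307 to 1040 CPM with vehicle and 143 to 682 CPM with E2, and 16 of these 20 genes had no count in at least 1 library. Markers of pancreatic acinar cells, which muscle lacks, summed to 23.6 to 370 CPM with vehicle and 4.97 to 23.8 CPM with E2, with no count for 5 of the 12. The member genes are used in both cell types, fewer cells of a type and less RNA per cell cannot be told apart in such samples, and the part that the muscle RNA has in the values below was not tested.

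Of the 94 members, 85 had a count in some library and 35 had a count in every library. A total of 34 members reached 20 counts over the 6 libraries and 51 had between 1 and 19 counts. No count was recorded for Ndufs6, Ndufa11, Ndufc1, Ndufaf2, Ndufaf3, Cox8c, Cox7b2, Cox6b2 and Atp5s, for which a count of 0 allows up to 3 counts, or up to 35.4 CPM in the shallowest library and 6.65 CPM in the deepest. These limits cover counting error only. The median over the members with a count was 14 counts, against 9 for all genes with a count. The members held 6468 counts together, and 62.7% of these belonged to Atp5k, Cox5b, Cox7b, Atp5j and Atp5e, with 26.2% for Atp5k alone.

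Only 14 of the 94 members passed edgeR's filter on low counts, which kept 1682 genes in all, and could be tested. The fit was edgeR's quasi-likelihood test of E2 against vehicle across these 1682 genes. At the study's threshold, p without adjustment at or below 0.05 and a mean log2 CPM not under 0, 1 of the 14 members was lower with E2 and 2 were higher, against 15.1% lower and 10.5% higher among all genes tested. The 3 members make 21.4% of those tested, compared with 25.6% of all genes. The lower one, Ndufb7, passed the filter only through the vehicle libraries, which fixed its direction. Of the 13 members that passed through libraries of both groups, 0 were lower and 2 were higher, compared with 13.5% and 9.30% of the 1603 genes that did so. At a Benjamini-Hochberg adjusted p below 0.05, edgeR's quasi-likelihood test called 0 of the 14 members, against 2.97% of all genes lower and 2.50% higher. With the same data and threshold, DESeq2 called 1 member higher and 0 lower, against 2.79% of all genes higher and 2.91% lower. edgeR's likelihood ratio test also called 1 higher and 0 lower, against 6.24% and 9.04%, and limma-voom called 0, against 3.75% higher and 0.535% lower.

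Without vehicle replicate 3 many more genes were called, 24.3% of 2162 genes lower and 22.1% higher at the adjusted p. Among the 20 members tested in that fit, edgeR's quasi-likelihood test called 3 lower (Ndufaf4, Atp5k and Ndufa9) and 6 higher (Cox5b, Atp5b, Ndufb9, Atp5j, Atp5f1 and Uqcrc1), which is 45.0% against 46.4% of all genes. The filter itself decided part of these calls, since Ndufaf4 and Ndufa9 passed it only through the vehicle libraries and Ndufb9 and Uqcrc1 only through the E2 libraries, and these 4 are therefore described below without a test in that fit. Of the 12 members that passed through libraries of both groups, 1 was called lower and 4 higher, which is 8.33% and 33.3%, compared with 19.3% and 18.3% of the 1566 genes that did so. With vehicle replicates 1 and 2 left out together, leaving vehicle replicate 3 alone and assumed to vary like the E2 libraries, it called 0 members at the adjusted p, against 0.0524% of all genes lower and 0.315% higher, and 0 lower and 2 higher of 17 members at the study's threshold, against 2.88% and 7.08%.

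The median log2 fold change of the 14 tested members was 0.19, compared with 0.01 for all genes tested, with 8 members above 0 and 6 below. Over the 85 members with a count, the mean CPM was higher with E2 for 52 and lower for 33, so that 61.2% were higher, against 46.5% of all genes with a count. Summed over all members, the level was 4875, 4629 and 3914 CPM in vehicle replicates 1 to 3 and 4082, 6301 and 4353 CPM in E2 replicates 1 to 3. The groups overlapped, at 4473 ± 499 CPM with vehicle and 4912 ± 1210 CPM with E2 (SD, n = 3 each), a log2 ratio of group means of 0.14. It was 0.05 without vehicle replicate 3, 0.33 against it alone, and -0.08 without E2 replicate 2.

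**Figure D1:**
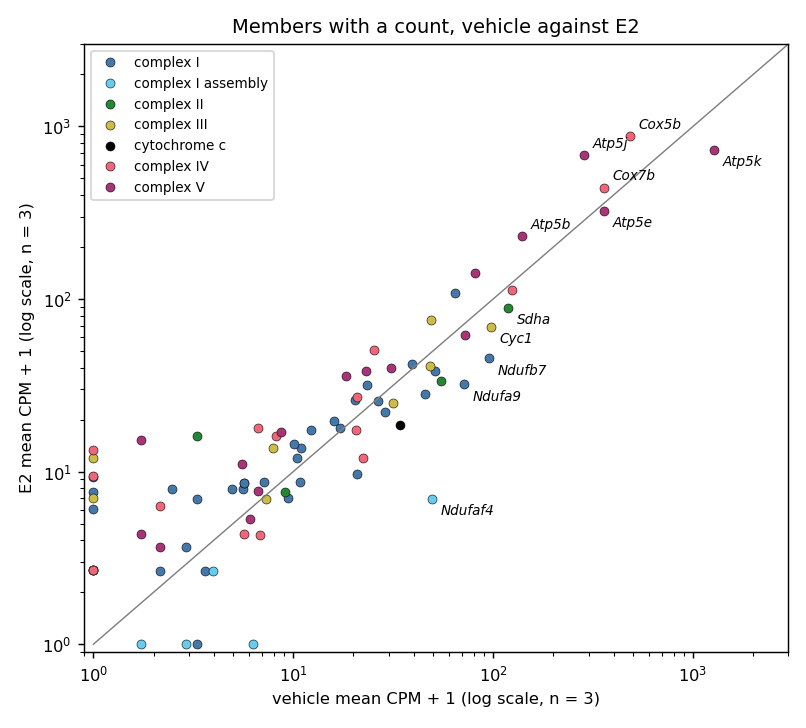
Mean level of each member with a count in vehicle libraries (x axis) and in E2 libraries (y axis), as CPM + 1 on log scales, n = 3 libraries each, colored by complex; the line marks equal levels. Atp5k and Ndufaf4 lie well below the line and Atp5j and Cox5b above it, while members at the lower left rest on few counts.

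Of the 34 members with 20 or more counts, 2 had all E2 libraries below all vehicle libraries (Ndufb7 and Ndufaf4), compared with 11.8% of 4657 genes with as many counts, and 3 had all E2 libraries above (Uqcrc1, Atp5j and Atp5b), compared with 6.48%. In 3 libraries against 3, the exact permutation test gives a two-sided p of 0.1 at the lowest, which each of these 5 members reached. A different split was seen in 7 members. There vehicle replicates 1 and 2 were both above the other 4 libraries, and the genes were Ndufb7, Ndufa9, Ndufa2, Ndufaf4, Sdha, Sdhc and Atp5k. Among all 4657 genes this held for 29.0%, so 7 of 34 members is not above the background. It is the split that the Y-linked counts also show, as do the endothelial markers, at 969 and 1038 CPM in vehicle replicates 1 and 2 and 143 to 682 CPM in the others, and the acinar markers, at 341 and 370 CPM against 23.8 CPM or less. The part of whatever sets vehicle replicates 1 and 2 apart in these 7 members was not tested.

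Complex I, the NADH dehydrogenase, had summed levels that overlapped between the groups. Its 38 subunit genes gave 602, 574 and 625 CPM with vehicle and 540, 695 and 502 CPM with E2, a log2 ratio of -0.05. The 35 genes with a count were thinly covered, with a median of 10 counts, and only Ndufb7 and Ndufb9 were tested.

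Ndufb7, an accessory subunit of the membrane arm, is the member that the fit placed lower with E2 at the study's threshold. Its level was 104, 95.3 and 82.5 CPM in the vehicle libraries and 47.6, 45.3 and 39.8 CPM in the E2 libraries, from 30, 43 and 7 counts and 6, 9 and 8 counts. Every E2 library was below every vehicle library. The mean was 93.9 ± 10.7 CPM with vehicle and 44.3 ± 4.03 CPM with E2 (SD, n = 3 each). Only the vehicle libraries reached the 50.1 CPM that the filter required, so that a gene entering the test in this way had to be lower with E2. The log2 fold change of -0.98 is for that reason given as a description, as are those of -0.92 without vehicle replicate 3 and -0.80 against vehicle replicate 3 alone. Ndufb7 lies on the plus strand of chromosome 8 (GRCm38, 83566671 to 83571626), and no exon of another gene overlaps it by 50 bases or more on the opposite strand.

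Ndufb9, another accessory subunit of the membrane arm, went the other way without passing the threshold. It had 45.0, 39.9 and 106 CPM with vehicle and 135, 131 and 54.7 CPM with E2, from 40 and 54 counts per group. Vehicle replicate 3 was above E2 replicate 3, so that the groups overlapped. The log2 fold change was 1.04 (SE 0.50, edgeR adjusted p = 0.195), and it was 1.53 without vehicle replicate 3 but 0.06 against vehicle replicate 3 alone (SE 0.67, edgeR adjusted p = 0.979).

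Ndufa9, a complex I subunit that did not pass the filter and which lies near the junction of the matrix and membrane arms, had 114, 73.2 and 23.6 CPM with vehicle and 7.94, 45.3 and 39.8 CPM with E2. Vehicle replicate 3 lay inside the range of the E2 libraries. Without that library the log2 fold change was -1.20, in a fit that the gene entered only through its vehicle counts.

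Ndufa4, which keeps its complex I symbol and is counted in that sum, but is now assigned to complex IV, had 31.2, 48.8 and 35.4 CPM with vehicle and 7.94, 60.4 and 54.7 CPM with E2. Its hypoxia-inducible relative Ndufa4l2 had 4 counts, all in E2 replicate 3.

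The 7 assembly factors of complex I are not part of the finished enzyme. Their summed level was 62.3, 79.8 and 35.4 CPM with vehicle and 7.94, 0 and 14.9 CPM with E2. The log2 ratio was -2.96, or -3.22 without vehicle replicate 3 and -2.21 against it alone. All 5 factors with a count had a lower mean with E2, but these rest on 57 counts with vehicle and 4 counts with E2, and Ndufaf4 held most of them.

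Ndufaf4, which takes part in assembling the early modules of complex I, had 15, 26 and 3 counts with vehicle and 1, 0 and 2 counts with E2. This corresponds to 51.9, 57.6 and 35.4 CPM against 7.94, 0 and 9.95 CPM, with no overlap. Pooled over libraries, 44 of 824695 counts compared with 3 of 525479 counts, a vehicle level 9.35-fold that of E2, with an exact 95% interval of 3 to 47 that covers counting error only. Most of the 44 counts came from vehicle replicates 1 and 2, the libraries with Y-linked counts. The 6-library filter removed this gene. Without vehicle replicate 3 it passed and had a log2 fold change of -2.92, but only its vehicle libraries carried it past the filter, and the fitted value depends on how the few E2 counts are treated. Counting noise is wide at this depth, since 3 counts in E2 replicate 1 would be 23.8 CPM.

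**Figure D2:**
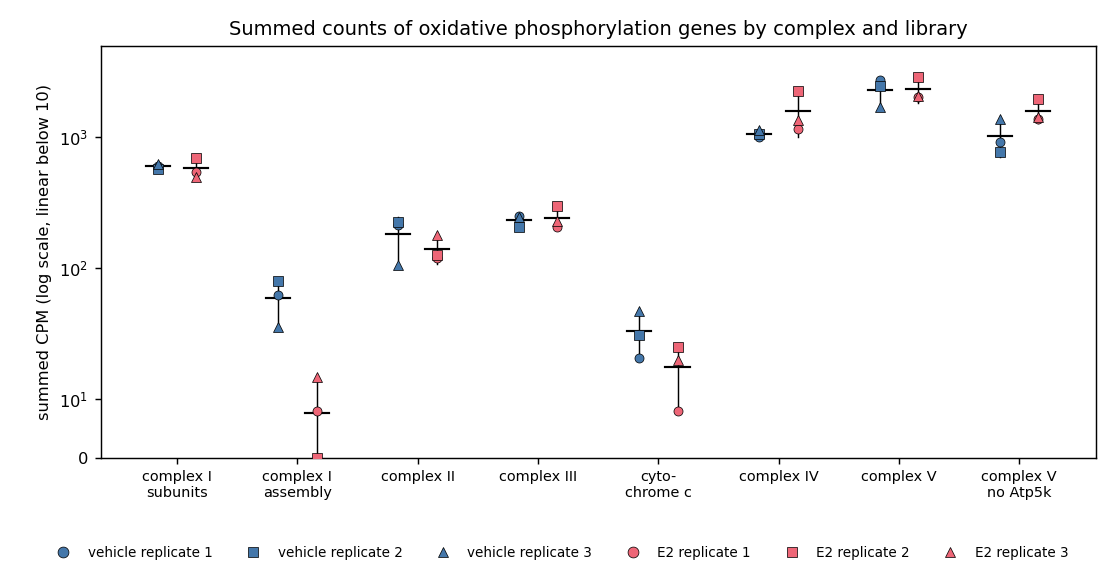
Summed CPM of the members of each complex in each library (y axis, log scale above 10 and linear below), vehicle in blue and E2 in red, with marks for replicates 1 to 3; black bars are group means and vertical lines the SD. Groups overlap for complexes I, II, III, cytochrome c and V, while complex IV, complex V without Atp5k and the complex I assembly factors do not overlap. Ndufa4 is counted in complex I, and in complex IV it would make the groups overlap.

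Complex II, succinate dehydrogenase, is the complex whose subunits are all nuclear-encoded and it also works in the tricarboxylic acid cycle. Its 4 genes summed to 215, 226 and 106 CPM with vehicle and 119, 126 and 179 CPM with E2, so that vehicle replicate 3 was the lowest of all 6. The log2 ratio of the means was -0.37, and it was -0.64 without vehicle replicate 3 but 0.41 against it alone, the opposite direction.

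Sdha, the flavoprotein that oxidizes succinate, was the tested gene. It had 121, 162 and 70.7 CPM with vehicle and 87.3, 65.5 and 109 CPM with E2, a log2 fold change of -0.33 (SE 0.46, edgeR adjusted p = 0.687). For Sdha this was -0.43 without vehicle replicate 3 but 0.43 against it alone, the opposite direction. Sdhc, a membrane anchor that binds ubiquinone, had 76.2, 62.1 and 23.6 CPM with vehicle and 31.8, 40.3 and 24.9 CPM with E2. In both genes vehicle replicates 1 and 2 were the highest libraries. The iron-sulfur subunit Sdhb had 2 counts with vehicle and 9 with E2, and the other anchor Sdhd had 5 and 4, which do not permit a comparison.

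Complex III passes electrons from ubiquinol to cytochrome c, and its 9 genes summed to 249, 208 and 248 CPM with vehicle and 206, 297 and 229 CPM with E2. The log2 ratio was 0.05, with E2 libraries on both sides of the vehicle libraries.

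Uqcrc1, a core structural subunit, had 45.0, 39.9 and 58.9 CPM with vehicle and 63.5, 101 and 59.7 CPM with E2. The groups did not overlap, but only 59.7 CPM in E2 replicate 3 set against 58.9 CPM in vehicle replicate 3 kept them apart. The log2 fold change was 0.86 (SE 0.46, edgeR adjusted p = 0.241), and it was 1.08 without vehicle replicate 3 and 0.44 against vehicle replicate 3 alone (SE 0.80, edgeR adjusted p = 0.883).

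Cyc1, the heme-bearing cytochrome c1, had 121, 84.3 and 82.5 CPM with vehicle and 39.7, 65.5 and 99.5 CPM with E2, a log2 fold change of -0.31 (SE 0.47, edgeR adjusted p = 0.715). For Cyc1 this was -0.25 without vehicle replicate 3 and -0.10 against it alone. Uqcrb and Uqcrh had the most counts of the untested genes of this complex. Uqcrb, which contributes to ubiquinone binding, had 45.0, 37.7 and 58.9 CPM against 39.7, 55.4 and 24.9 CPM, and Uqcrh, the hinge subunit, had 34.6, 22.2 and 35.4 CPM against 31.8, 25.2 and 14.9 CPM.

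Uqcrc2, the core partner of Uqcrc1, had 0 counts in every vehicle library and 1, 2 and 3 counts with E2. This is 7.94, 10.1 and 14.9 CPM in the E2 libraries, while a count of 0 allows up to 10.4, 6.65 and 35.4 CPM in vehicle replicates 1 to 3, so that single libraries do not separate the groups. Pooled over libraries, 0 of 824695 counts compared with 6 of 525479 counts, or 11.4 CPM with E2 against the 3.64 CPM that 3 counts over the vehicle group would give. The 6 counts have a counting error of their own, so no lower limit of the fold is given for Uqcrc2. Of its 2552 exon bases, 504 overlap exons of Pdzd9 on the opposite strand, which has 104 counts, so that the few counts of Uqcrc2 may not be its own. The gene did not pass the filter, and in the fit with no filter it met the study's threshold before adjustment, with an edgeR adjusted p of 0.218. Cycs, the soluble carrier between complexes III and IV, had 20.8, 31.0 and 47.2 CPM with vehicle and 7.94, 25.2 and 19.9 CPM with E2, with overlap. About 26.1% of its 50-base stretches also occur in transcripts of other genes, so its counts are uncertain.

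Complex IV, cytochrome c oxidase, had the E2 libraries above the vehicle libraries when its 18 genes, which leave out Ndufa4, were summed. The level was 1007, 1055 and 1144 CPM with vehicle and 1167, 2272 and 1348 CPM with E2, a log2 ratio of 0.58. E2 replicate 2 was far above the others, the lowest E2 library exceeded the highest vehicle library by less than the value of 3 counts in either library, and the group means were 1069 ± 69 and 1596 ± 592 CPM (SD, n = 3 each). Most of these counts came from Cox5b and Cox7b. Ndufa4, counted by its symbol in complex I, had 35.4 CPM in vehicle replicate 3 and 7.94 CPM in E2 replicate 1. Added to complex IV, it would place vehicle replicate 3 above E2 replicate 1, so that the groups would overlap.

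Cox5b, a nuclear-encoded subunit on the matrix side, had 443, 288 and 707 CPM with vehicle and 659, 1170 and 796 CPM with E2. E2 replicate 1 was below vehicle replicate 3, and the other vehicle libraries were below all E2 libraries. E2 against vehicle gave a log2 fold change of 0.99 (SE 0.48, edgeR adjusted p = 0.197), and 1.49 without vehicle replicate 3 (SE 0.34, edgeR adjusted p = 0.00133). It was 0.40 against vehicle replicate 3 alone (SE 0.52, edgeR adjusted p = 0.823). Of the 50-base stretches of Cox5b, 11.9% are shared with 1 other gene.

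Cox7b, a small membrane subunit encoded on the X chromosome, had 357, 525 and 189 CPM with vehicle and 214, 771 and 338 CPM with E2. The groups overlapped widely, and the log2 fold change was 0.38 (SE 0.50, edgeR adjusted p = 0.673), or 0.24 without vehicle replicate 3 and 1.30 against that library alone. It was 0.02 without E2 replicate 2 and 0.78 without E2 replicate 1. Cox4i1, the ubiquitous regulatory subunit, had 111, 140 and 118 CPM with vehicle and 143, 121 and 69.6 CPM with E2, a log2 fold change of -0.05 (SE 0.43, edgeR adjusted p = 0.951). For Cox4i1 this was 0.02 without vehicle replicate 3 and -0.03 against it alone.

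Isoform pairs of complex IV, whose members are expressed in different tissues, had few counts apart from Cox4i1 and Cox8a. Over vehicle and E2 libraries together, the muscle form Cox6a2 had 15 counts, against 5 for the ubiquitous Cox6a1. The muscle forms Cox7a1 and Cox8b had 3 and 5 counts, compared with 1 for Cox7a2 and 39 for Cox8a. Cox7a2l, which takes part in supercomplex formation, had 23 counts, the oxygen-responsive Cox4i2 had 4, and Cox6b1 had 5 while its testis form Cox6b2 had none. Cox8a had 17.3, 42.1 and 0 CPM with vehicle and 7.94, 40.3 and 29.8 CPM with E2, which overlap. Cox6c, a further small subunit with many counts among those not tested, had 10.4, 15.5 and 47.2 CPM with vehicle and 47.6, 65.5 and 34.8 CPM with E2.

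Complex V, ATP synthase, held more counts than any other complex, and 6 of its 17 genes were tested. Its sums were 2718, 2454 and 1709 CPM with vehicle and 2033, 2886 and 2060 CPM with E2, a log2 ratio of 0.02, which was -0.15 without vehicle replicate 3 and 0.44 against it alone. Atp5k and the remaining genes are given apart, since Atp5k alone held a large share of these counts.

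Atp5k, the small e subunit of the membrane sector, which is linked to dimerization of the enzyme, had 1790, 1690 and 330 CPM in vehicle replicates 1 to 3, from 517, 761 and 28 counts. It had 643, 917 and 622 CPM in E2 replicates 1 to 3, from 81, 182 and 125 counts. Vehicle replicate 3 was the lowest of all libraries and vehicle replicates 1 and 2 the highest. Over all 6 libraries the log2 fold change was -0.69 (SE 0.53, edgeR adjusted p = 0.43), and -1.02 without vehicle replicate 3 (SE 0.30, edgeR adjusted p = 0.00881). Against vehicle replicate 3 alone the direction turned, to a log2 fold change of 1.23 (edgeR adjusted p = 0.443). Atp5k made up 65.9 and 68.7% of the complex V counts in vehicle replicates 1 and 2, 19.3% in vehicle replicate 3, and between 30.2 and 31.8% in the E2 libraries. Per kilobase of exon it was also the member with the highest level, at 2060 CPM per kb with vehicle and 1180 with E2, followed by Cox5b at 302 and 551.

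Without Atp5k, the remaining 16 genes of complex V summed to 928, 767 and 1379 CPM with vehicle and 1390, 1969 and 1438 CPM with E2, a log2 ratio of 0.64, an additional sum that was made after the data were seen. This ratio was 0.92 without vehicle replicate 3 and 0.21 against it alone. The groups were separated by 1379 against 1390 CPM. For all members without Atp5k the log2 ratio was 0.39, or 0.47 without vehicle replicate 3 and 0.22 against it alone.

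Atp5j, coupling factor 6 in the peripheral stalk, had the largest log2 fold change of the tested members. It had 211, 213 and 424 CPM with vehicle and 564, 705 and 766 CPM with E2, from 61, 96 and 36 counts and 71, 140 and 154 counts. All E2 libraries were above all vehicle libraries, and vehicle replicate 3 was again nearest to the E2 group. The mean rose from 283 ± 123 to 678 ± 104 CPM (SD, n = 3 each). This is a log2 fold change of 1.44 (SE 0.48, edgeR adjusted p = 0.0781), which passed the study's threshold but not the adjusted one. It was 1.94 without vehicle replicate 3 (SE 0.33, edgeR adjusted p = 9.25e-05), and 0.80 against vehicle replicate 3 alone (SE 0.54, edgeR adjusted p = 0.673).

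Atp5j lies on the minus strand of chromosome 16 (GRCm38, 84827866 to 84835625), and 397 of its 3130 exon bases overlap exons of Gabpa on the opposite strand. Gabpa encodes the DNA-binding subunit of GABP. It had 180, 191 and 271 CPM with vehicle and 604, 544 and 383 CPM with E2, with a log2 fold change of 1.39 (SE 0.45, edgeR adjusted p = 0.071) and no overlap between the groups. All E2 libraries were above all vehicle libraries in 6.48% of genes with 20 or more counts. The log2 fold change of Gabpa was 1.69 without vehicle replicate 3 and 1.00 against it alone. The sources used here do not say whether reads were counted by strand, and counts of Atp5j and Gabpa in the shared stretch cannot be told apart. In all, exons of 25 members overlap those of a gene on the opposite strand by 50 bases or more.

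Atp5f1, the b subunit of the same stalk, was the other member that was higher at the study's threshold. It had 45.0, 66.5 and 130 CPM with vehicle and 135, 166 and 119 CPM with E2, with E2 replicate 3 below vehicle replicate 3. The log2 fold change was 1.08 (SE 0.47, edgeR adjusted p = 0.152), and 1.54 without vehicle replicate 3 (edgeR adjusted p = 0.00151). Against vehicle replicate 3 alone it was 0.21 (SE 0.63, edgeR adjusted p = 0.941). It shares 337 exon bases with Wdr77 and 203 with Gm42890 on the opposite strand, and Wdr77 had no counts.

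Atp5b and Atp5a1 encode the catalytic β subunit and its α partner, which alternate in the F1 head. Atp5b had 125, 124 and 165 CPM with vehicle and 183, 287 and 219 CPM with E2, without overlap, and a log2 fold change of 0.90 (SE 0.43, edgeR adjusted p = 0.198), or 1.14 without vehicle replicate 3 (edgeR adjusted p = 0.0064) and 0.58 against it alone (SE 0.60, edgeR adjusted p = 0.784). Atp5a1 had 65.8, 66.5 and 82.5 CPM with vehicle and 31.8, 70.5 and 79.6 CPM with E2, a log2 fold change of 0.01 (SE 0.44, edgeR adjusted p = 0.995). For Atp5a1 this was 0.2 without vehicle replicate 3 and -0.28 against it alone. The difference between these partners was not tested.

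Atp5e, the ε subunit of the central stalk, had 381, 195 and 495 CPM with vehicle and 373, 473 and 119 CPM with E2, a log2 fold change of -0.07 (SE 0.51, edgeR adjusted p = 0.946). The direction turned with the vehicle libraries used, at 0.35 without vehicle replicate 3 and -0.58 against it alone. Of the untested genes of complex V, Atp5o, the stalk subunit that confers oligomycin sensitivity, had 38.1, 39.9 and 11.8 CPM against 15.9, 65.5 and 34.8 CPM, and Atp5c1, the rotating γ subunit, had 17.3, 13.3 and 35.4 CPM against 15.9, 75.6 and 19.9 CPM. The 3 genes for subunit c of the rotor ring, Atp5g1, Atp5g2 and Atp5g3, had 3, 10 and 4 counts in all.

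**Figure D3:**
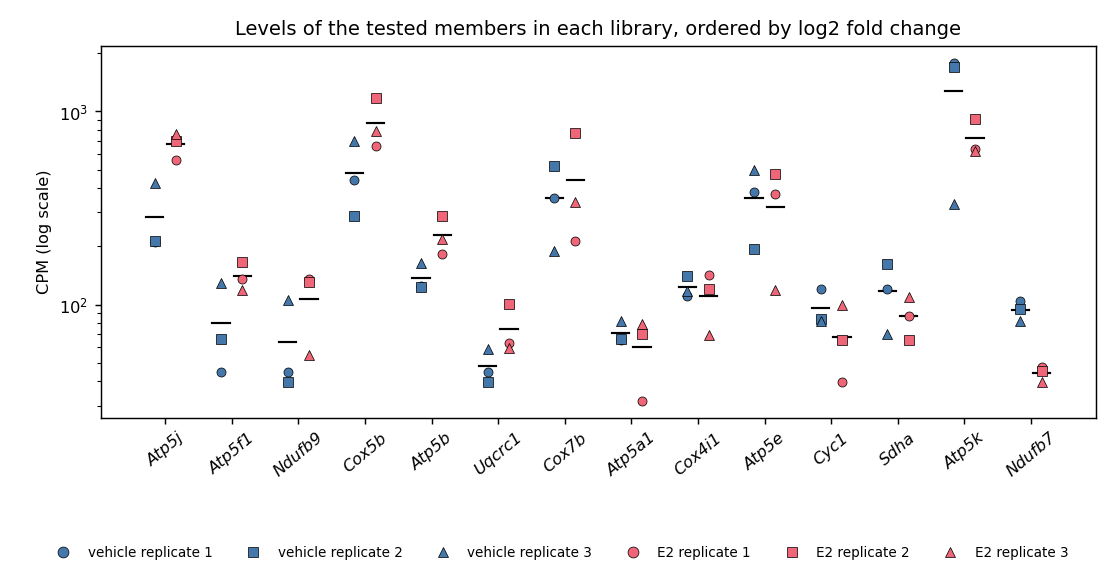
Level of the 14 tested members in each library (y axis, CPM on a log scale), ordered from the largest to the smallest log2 fold change, vehicle in blue and E2 in red, with marks for replicates 1 to 3 and black bars for group means. Vehicle replicate 3, the blue triangle, is the vehicle library nearest to or among the E2 libraries for Atp5j, Atp5f1, Ndufb9, Cox5b, Atp5b and Uqcrc1, and the lowest of all for Atp5k.

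**Figure D4:**
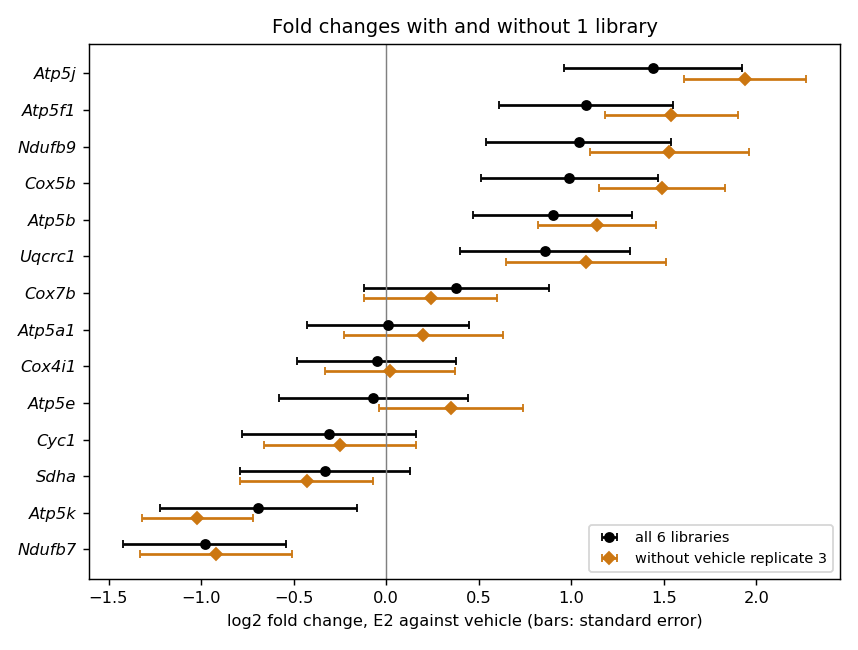
Log2 fold change of E2 against vehicle (x axis) for the 14 tested members with all 6 libraries (black circles) and without vehicle replicate 3 (orange diamonds); bars are standard errors from edgeR's quasi-likelihood fit. For the 6 members at the top the fold change is larger without that library, and Atp5k moves from -0.69 to -1.02.

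Genes that surround the pathway were counted in lists. Of 41 assembly factors outside the symbols above, 38 were in the table and 4 were tested, of which 1 was higher at the study's threshold, where 10.5% of all genes were higher. This was Surf1, needed to assemble complex IV, with 3.46, 22.2 and 58.9 CPM with vehicle and 31.8, 65.5 and 84.6 CPM with E2, which overlap. Its log2 fold change was 1.76 (SE 0.71, edgeR adjusted p = 0.129), and 0.21 against vehicle replicate 3 alone. It was 2.37 without vehicle replicate 3, in a fit that the gene entered only through its E2 counts. The others were Ttc19, Cox20 and Coa5, at 0.76, -0.16 and 0.16.

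The 18 genes of the tricarboxylic acid cycle and pyruvate dehydrogenase had 6 tested members, among them Idh3b, Idh3g, Ogdh, Dld and Suclg2, and edgeR's quasi-likelihood test called 0 of them at the study's threshold, where 15.1% of all genes were lower and 10.5% higher, with log2 fold changes between -0.42 for Idh3b and 0.59 for Idh3g. Among 13 regulators of mitochondrial biogenesis only Gabpa was tested. Of 10 genes for ATP and phosphate transport and related functions, the ADP/ATP carrier Slc25a4 had a log2 fold change of -0.24 and the mitochondrial creatine kinase Ckmt2 one of -0.72 (SE 0.46, edgeR adjusted p = 0.339), and the latter was -0.89 without vehicle replicate 3 (edgeR adjusted p = 0.0273) and 0.24 against it alone (edgeR adjusted p = 0.925). The 13 subunits encoded by mitochondrial DNA were not analysed here.

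Motifs were counted in the regions upstream of the members, with no test. RefSeq starts (GRCm38.p6) were matched for 77 members and 27025 genes, and the 250 bases before each start were searched on both strands. The NRF1 motif CGCATGCG, which reads the same on both strands, was present in 9 members, or 11.7%, compared with 1.7% of all genes. The ETS motif CCGGAAG, the kind bound by GABP, was found in 16.9% against 7.8%, the YY1 motif AAGATGGCG in 2.6% against 0.7%, and CCAAT in 45.5% against 37.5%. The estrogen response element, GGTCA and TGACC with 3 bases between them, was in 0 members and in 0.1% of all genes, and this says only that these letters are not in this window. The members' windows were richer in G and C, with a median of 57.2% against 52.0%, and these 5 shares are descriptions of sequence, not of binding.

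The NRF1 motif is shown, in capitals, for the 5 members that carried it and had at least 20 counts, since these included Atp5k, Atp5j and Ndufaf4, which differed in direction. They are given 5′ to 3′ on the strand of the gene, Atp5k from chr5:108434430-108434459 (minus), Atp5j from chr16:84835105-84835134 (minus), Cycs from chr6:50566612-50566641 (minus), Ndufa8 from chr2:36049339-36049358 (minus) and Ndufaf4 from the whole window chr4:24897833-24898082 (plus).
Atp5k: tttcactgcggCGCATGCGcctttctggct
Atp5j: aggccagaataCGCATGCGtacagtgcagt
Cycs: ccatgctagctCGCATGCGcgcgcacaaac
Ndufa8: gtcgctggagaCGCATGCGc
Ndufaf4: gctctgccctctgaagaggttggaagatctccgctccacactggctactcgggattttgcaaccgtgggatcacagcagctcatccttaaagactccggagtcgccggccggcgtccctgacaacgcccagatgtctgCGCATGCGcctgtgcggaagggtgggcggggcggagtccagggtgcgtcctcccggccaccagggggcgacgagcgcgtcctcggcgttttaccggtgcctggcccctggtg
The motif begins 49 bases before the RefSeq start in Atp5k, 147 in Atp5j, 61 in Cycs, 9 in Ndufa8 and 112 in Ndufaf4. RefSeq gives 2 starts for Atp5j, and the motif lies before the second only. In Atp5k, Atp5j and Ndufa8 the printed stretch overlaps an exon annotated in GENCODE, and in Cycs and Ndufaf4 it does not. Of these genes Atp5j was higher and Ndufaf4 lower with E2 without overlap between groups, while the level of Atp5k depended on vehicle replicate 3, Cycs overlapped between groups, and Ndufa8, a complex I subunit with 31 counts, had 17.3, 28.8 and 11.8 CPM with vehicle and 39.7, 15.1 and 19.9 CPM with E2, which also overlap.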

How the data were processed

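TRAP RNA was measured in 3 vehicle and 3 E2 libraries, grouped by label. The authors used bcl2fastq (2.17) and FastQC (0.11.2) on the reads, STAR (2.5.3a) to align to mm10, and featureCounts from Subread (1.6.0) for gene counting, as stated in the methods and the submitters' processing notes. They deposited raw counts by gene symbol, not normalized. The library kit is a ribosome profiling kit in the study's methods and a stranded total RNA kit in the labels.

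From these counts, E2 was compared with vehicle in edgeR (4.0.16, R 4.3.3) with filterByExpr, TMM scaling, the quasi-likelihood test and Benjamini-Hochberg adjustment over 1682 genes. Standard errors are the absolute log2 fold change divided by the square root of F. CPM relate to the library's total of all counts, and the table had no column without a sample. Replicates did not match each other within sampling noise. Named genes were all tested members, the 2 members with most counts among the others of each complex, isoform sets, the Sdh genes, Cyc1, Cycs, Uqcrc2, members with no overlap and 20 or more counts, and tested genes of the pathway lists. Some genes under this rule are not reported here. Ndufa2 and Ndufa8 were named after their values were seen. The members and lists were chosen with earlier results of these data known. Gene positions, exons and 50-base stretches are from GENCODE M21, in which all 94 members were found, 1 of them by a synonym, and upstream sequences are from RefSeq (GRCm38.p6). The authors' annotation is that of iGenomes, so exons may differ. Alternatives were other filters, scalings and tests (DESeq2 1.42.0, limma 3.58.1), the replicate number as a block, and leaving out libraries.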

Additional observations from a re-analysis of the deposited data

How the results depend on the processing

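The median log2 fold change of the members, 0.19, and the log2 ratio of their summed level, 0.14, moved by less than the spread between libraries, but by up to their own size or more. The median was 0.00 to 0.21 when 1 library was left out, 0.05 with library totals only and 0.42 with no filter and with the 10-count filter. The summed ratio was -0.08 to 0.25 when 1 library was left out, 0.33 with vehicle replicates 1 and 2 left out together and 0.39 without Atp5k. Counts of called genes did not. Against 50 genes lower and 42 higher in all 6 libraries, 132 were lower with no filter, 0 lower and 11 higher among 578 genes with at least 10 counts in every library, 90 lower with library totals only, 152 lower and 105 higher with the likelihood ratio test, 9 lower with limma-voom, 1 lower and 6 higher with vehicle replicates 1 and 2 left out together, and 2 to 526 lower and 6 to 477 higher when 1 library was left out, both highest values being those without vehicle replicate 3. Fewer genes entered the 10-count fit. The replicate number as a block gave 1 lower and 7 higher genes. Same-numbered libraries correlated at -0.13, 0.03 and -0.20 in their deviations from the group means, so the numbers were not taken to pair them.

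For members, 1 was lower at the adjusted p with no filter (Ndufaf4, 1.18% against 0.939% of all genes), 0 to 3 when 1 library was left out, and 0 in the fits with other tests. At the adjusted p, 1 member was higher with the likelihood ratio test and 1 with DESeq2, Atp5j in each case (1.45, adjusted p = 0.0242, and 1.43, adjusted p = 0.0444), and 0 to 6 when 1 library was left out. At the unadjusted threshold, 2 of 85 members were lower with no filter (2.35%, against 6.81% of all genes), 0 with the 10-count filter, DESeq2, the replicate block and vehicle replicates 1 and 2 left out together (89 of 578, 219 of 1682, 170 of 1682 and 55 of 1907 genes), and 0 to 4 when 1 library was left out, the most being 4 of 20 without vehicle replicate 3 (against 27.6% of all genes). Higher were 10 of 85 with no filter (11.8%, against 3.27% of all genes), of which 5 had no count in any vehicle library and 4 to 6 counts with E2, 3 of 8 with the 10-count filter (37.5% against 11.9%), and of 14 tested 1 with library totals only (7.14% against 7.25%), 6 with the likelihood ratio test (42.9% against 219 of 1682 genes) and 6 with limma-voom (42.9% against 15.7%), and 0 to 6 when 1 library was left out, the most being 6 of 20 without vehicle replicate 3 (against 25.9% of all genes).

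Directions turned for Atp5k and for 5 members with log2 fold changes from -0.33 to 0.01. Atp5a1 was at -0.10 with no filter, -0.01 with RLE scaling, -0.18 with library totals, -0.00 without Rn45s, -0.04 with DESeq2, -0.15 with the replicate block, -0.28 with vehicle replicates 1 and 2 left out together, and -0.26 to 0.33 when 1 library was left out. When 1 library was left out, Atp5e ranged from -0.48 to 0.35, Cox4i1 from -0.19 to 0.21, Cyc1 from -0.74 to 0.00 and Sdha from -0.58 to 0.08. With vehicle replicates 1 and 2 left out together, Sdha was at 0.43 and Atp5k at 1.23. The cause was not tested. Library totals moved the median of all genes to -0.15. Of the 14 tested members, those called without vehicle replicate 3 had adjusted p-values above 0.05 when any other library was left out. Depth limits most members, since 51 have under 20 counts in all and 71 with a count could not be tested.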
